A study of Mus musculus with 17 samples.

Results

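The 10 genes described here, Pecam1, Cdh5, Kdr, Tek, Tie1, Flt1, Flt4, Emcn, Sox17 and Sox18, are standard markers of the endothelium, the cell layer that lines blood vessels. They were taken by symbol from a table of 41709 genes measured by RNA sequencing in 17 single whole mouse embryos, and all 10 were found. All embryos were C57BL/6J, and each was frozen and sequenced on its own. The 4 Disp1_CS_INDEL embryos (E9.5) carried a CS allele of Disp1 from their mother and an INDEL allele from their father, and the 4 Disp1_WT embryos (E9.5) were wild type from litters of the same cross. The 5 Myo10_m1J embryos (E8.5) were homozygous for the m1J allele of Myo10, and the 4 Myo10_WT embryos (E8.5) were +/+. Both genes act in the delivery of Hedgehog proteins, Disp1 in their release from the cell and Myo10 as a motor protein of filopodia, which have been described to carry them. The comparisons asked how the endothelial genes differ when either gene is mutated, and how they differ between the ages. Values are TPM, transcripts scaled to the same total in each library, a unit that corrects for gene length, so levels of different genes can be set beside each other.

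The first vessels form when mesodermal cells that express the vascular endothelial growth factor (VEGF) receptor Kdr become endothelial cells and join into tubes, which then sprout and remodel. VEGF receptors drive the birth and growth of these cells, angiopoietin receptors of the Tie family act in remodelling and stability, and cadherins and mucins build the junctions and the inner surface of the vessel. SOX proteins of the SoxF subfamily, to which Sox17 and Sox18 belong, are transcription factors of arterial and lymphatic development, and Sox17 is also a classical gene of the endoderm.

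Myo10 lay between 2.16 and 4.35 TPM in Myo10_m1J embryos, against 19.9 to 33.9 TPM in Myo10_WT embryos. Disp1 lay between 11.6 and 16.3 TPM in Disp1_CS_INDEL embryos, against 15.3 to 19.3 TPM in Disp1_WT embryos, which overlap. Between 13103 and 13408 genes reached 1 TPM in an E9.5 library, and between 11926 and 12957 in an E8.5 library. Structural RNAs such as the 7SL and 7SK RNAs took between 29.7% and 44.5% of the TPM at E8.5 and at most 0.0132% at E9.5, so a gene of unchanged share among the other transcripts reads higher at E9.5. Disp1_WT replicate 3 stood apart, with a summed 822 TPM of 10 trophoblast and decidua genes against 101 to 128 TPM in the other Disp1_WT embryos.

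All 10 genes were detected in all 17 embryos, and their order of abundance differed between the ages. At E9.5 Cdh5, the cadherin of endothelial junctions, was the most abundant member, at 65.6 ± 3.53 TPM in Disp1_CS_INDEL and 62.7 ± 4.87 TPM in Disp1_WT embryos (SD, n = 4 each). Sox18, Kdr, Tie1, Tek, Pecam1, Flt4, Emcn and Flt1 followed in that order in both E9.5 groups, and Sox17 came last. In the plot of levels by embryo, the ranges of Cdh5 and of Sox17 stood apart from those of their neighbours in that order in both E9.5 groups. The ranges of Kdr and Tie1, and those of Flt4 and Emcn, overlapped.

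At E8.5 Kdr, the main signalling receptor for VEGF-A, led the order with 29.0 ± 6.81 TPM in Myo10_m1J (SD, n = 5) and 32.3 ± 6.64 TPM in Myo10_WT embryos (SD, n = 4). Tek, the receptor for angiopoietins, came next, followed by Cdh5, Sox18 and Tie1 in both E8.5 groups. Emcn, an endothelial sialomucin, was last, with 1.38 ± 0.79 TPM in Myo10_m1J (SD, n = 5) and 1.36 ± 0.87 TPM in Myo10_WT embryos (SD, n = 4). Only the step down to Emcn exceeded the spread between embryos at E8.5, since each of the other neighbours in the order overlapped in range in both groups. Together the 10 genes summed to 238 ± 19.3 TPM in Disp1_CS_INDEL and 228 ± 11.8 TPM in Disp1_WT (SD, n = 4 each), and to 114 ± 29.1 TPM in Myo10_m1J (SD, n = 5) and 123 ± 26.5 TPM in Myo10_WT (SD, n = 4). In whole embryos fewer endothelial cells and less RNA per cell cannot be told apart.

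**Figure D1:**
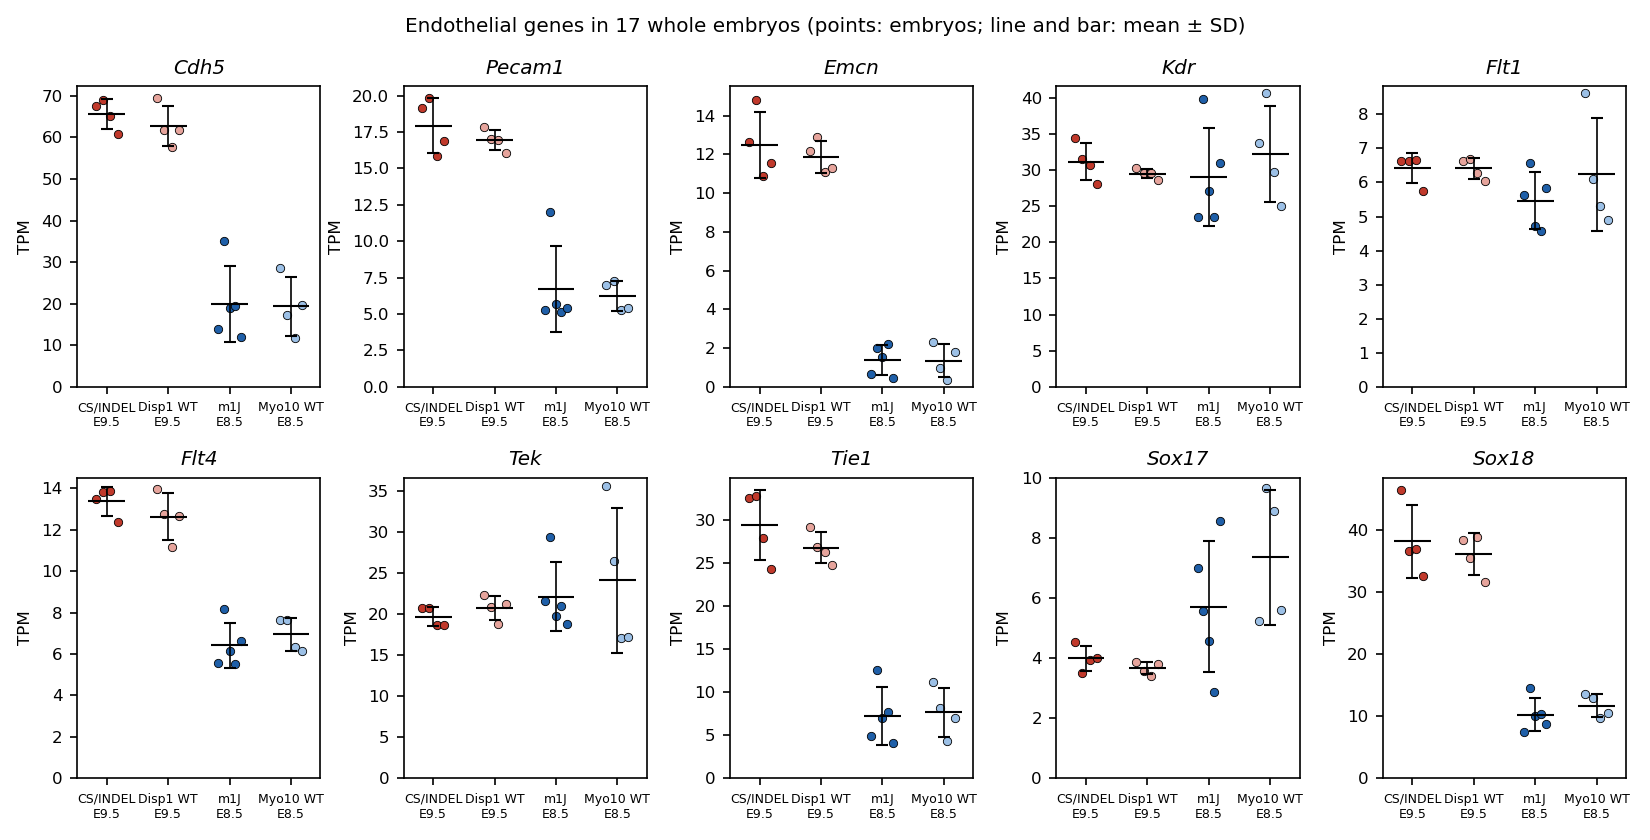
TPM of each endothelial gene (one panel per gene, vertical axis from 0) in the embryos of the 4 groups, with Disp1_CS_INDEL left of Disp1_WT and Myo10_m1J left of Myo10_WT; points are embryos, horizontal lines are means and bars are 1 SD. On TPM as deposited, Cdh5, Pecam1, Emcn, Flt4, Tie1 and Sox18 lie higher in every E9.5 embryo than in any E8.5 embryo, whereas Kdr, Flt1 and Tek overlap between the ages. How many of all genes separate in this way was not counted. Of all genes tested by limma, 69.4% were called higher at E9.5 in wild-type and 77.5% in mutant embryos (adjusted p under 0.05).

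None of the 10 genes passed the test between Disp1_CS_INDEL and Disp1_WT embryos. The log2 fold changes on log2(TPM + 1) ran from -0.07 for Tek to 0.12 for Tie1, and 8 of the 10 were positive. Of all genes, 43% lay at or below the -0.0011 of Flt1. No member passed limma's moderated test at an adjusted p of 0.05 (adjusted p = 1 for each), and none had an unadjusted p under 0.05. Over all 13294 genes tested, 0.0301% were called and 301 had an unadjusted p under 0.05. The median log2 fold change was 0.07 for the 10 genes and 0.01 for all genes. Without Disp1_WT replicate 3 no member was called, and the changes ran from -0.12 for Tek to 0.12 for Tie1.

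Tie1, a receptor that modulates signalling by Tek, had 32.6, 32.8, 28.0 and 24.4 TPM in Disp1_CS_INDEL embryos, against 29.1, 26.9, 26.3 and 24.8 TPM in Disp1_WT embryos. The lowest Disp1_CS_INDEL embryo lay under every Disp1_WT embryo, so the groups overlapped (two-sided exact permutation p = 0.286, of which 0.0286 is the smallest that 4 against 4 embryos allow). Tek had 20.7, 20.8, 18.7 and 18.7 TPM in Disp1_CS_INDEL embryos, against 22.3, 20.9, 18.8 and 21.2 TPM in Disp1_WT embryos. Its log2 fold change was -0.07 with a 95% interval of -0.23 to 0.08, and the groups overlapped again. Sox17 had 4.54, 3.51, 3.96 and 4.00 TPM in Disp1_CS_INDEL embryos and 3.87, 3.58, 3.42 and 3.81 TPM in Disp1_WT embryos, with a log2 fold change of 0.10 (95% interval -0.10 to 0.30).

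The other members overlapped between the Disp1 groups as well. The receptors Kdr (0.07), Flt1 (-0.0011) and Flt4 (0.08) and the surface proteins Cdh5 (0.07), Pecam1 (0.07) and Emcn (0.06) had log2 fold changes whose 95% intervals all contained 0, and so did Sox18 (0.07). The narrowest of these intervals, that of Cdh5, ran from -0.08 to 0.21, and the widest, that of Sox18, from -0.16 to 0.31. The 95% intervals in the plot of mutant effects reach at most 0.34 upward, for Tie1, and -0.23 downward, for Tek.

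None of the 10 genes passed the test between Myo10_m1J and Myo10_WT embryos either, but the embryos of each E8.5 group spread more widely. The log2 fold changes ran from -0.34 for Sox17 to 0.03 for Pecam1, with 7 of the 10 negative. Most genes were negative in this comparison, since 94.75% of all genes lay at or below the 0.01 of Cdh5. No member was called by limma (smallest adjusted p = 0.475, for Sox17) and none had an unadjusted p under 0.05. Over all 12560 genes tested, 0.00796% were called and 854 had an unadjusted p under 0.05. The median was -0.10 for the 10 genes and -0.16 for all genes, and scaling by median-of-ratios moved the median of all genes to 0.01 and turned the sign for Kdr (0.04), Tek (0.12), Tie1 (0.08), Flt1 (0.02) and Flt4 (0.07).

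Sox17 had 7.02, 5.57, 4.57, 2.88 and 8.57 TPM in Myo10_m1J embryos, against 5.25, 9.68, 8.90 and 5.62 TPM in Myo10_WT embryos. Myo10_m1J replicate 4 was the lowest and Myo10_WT replicate 2 the highest of the 9, and the groups overlapped (log2 fold change -0.34, 95% interval -0.88 to 0.20; two-sided exact permutation p = 0.302, smallest possible 0.0159). Sox18 had 7.50, 14.5, 10.1, 10.4 and 8.73 TPM in Myo10_m1J embryos, against 13.6, 13.0, 9.74 and 10.6 TPM in Myo10_WT embryos (log2 fold change -0.20, 95% interval -0.56 to 0.17). Its highest and lowest values both came from Myo10_m1J embryos.

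Cdh5 had 13.9, 35.2, 18.9, 19.5 and 12.1 TPM in Myo10_m1J embryos, against 28.7, 17.4, 11.8 and 19.6 TPM in Myo10_WT embryos. Its log2 fold change was 0.01, with a 95% interval of -0.60 to 0.62. Pecam1, an adhesion molecule of endothelial junctions and platelets, had 5.28, 12.0, 5.70, 5.17 and 5.39 TPM in Myo10_m1J embryos, against 7.01, 7.27, 5.30 and 5.40 TPM in Myo10_WT embryos. Myo10_m1J replicate 2 stood alone at the top, and without it the log2 fold change of Pecam1 was -0.17, against 0.03 with it.

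Transcripts of the Y chromosome were present in 3 of 5 Myo10_m1J and 1 of 4 Myo10_WT embryos, so sex was not balanced between the E8.5 groups. With a term for these transcripts the log2 fold change was -0.13 for Sox17, -0.27 for Emcn and -0.27 for Cdh5, and no member was called. Within embryos that carried them, the difference of Myo10_m1J from Myo10_WT was -0.26 for Sox17 and -0.19 for Emcn (3 against 1 embryos), and within the others it was -0.02 for Sox17 and -0.33 for Emcn (2 against 3 embryos). In the Disp1 experiment 3 of 4 embryos of each group carried such transcripts.

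The difference between the mutant effects was tested directly in a fit of all 17 libraries. It was not called for any member, and no member had an unadjusted p under 0.05, against 689 of 13910 genes at that threshold and 0.0216% called. Sox17 had the largest difference, with a log2 effect in Disp1_CS_INDEL that was 0.44 above that in Myo10_m1J (SE 0.30, limma adjusted p = 0.586).

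**Figure D2:**
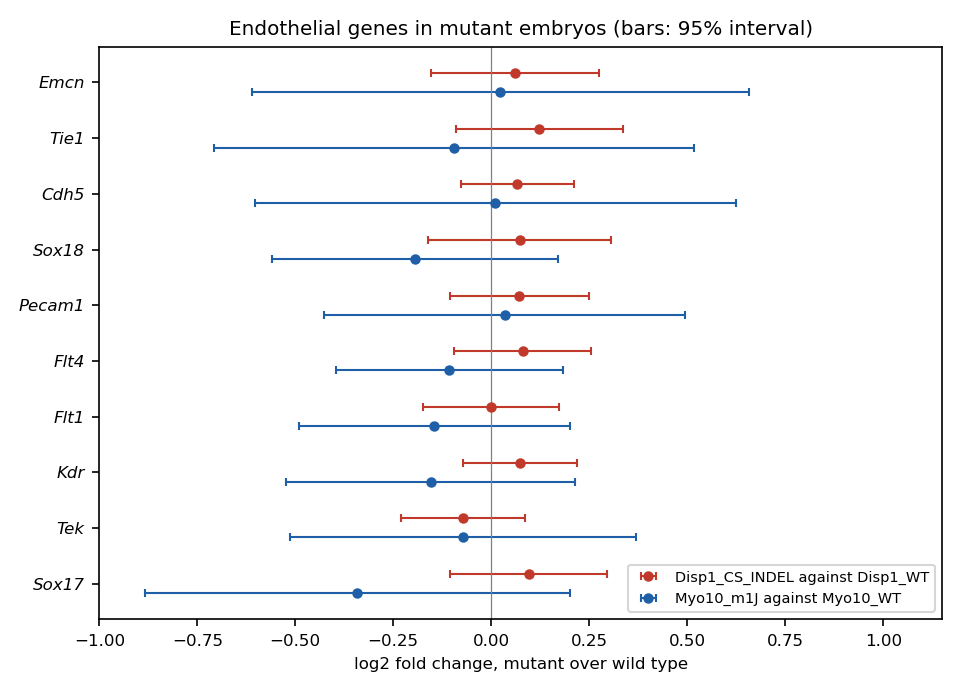
Log2 fold change on log2(TPM + 1), mutant over wild type, of each endothelial gene (rows) in the Disp1 experiment at E9.5 (red) and the Myo10 experiment at E8.5 (blue); points are limma estimates and bars their 95% intervals. All 20 intervals contain 0, and those of the Myo10 experiment are wider, up to -0.61 to 0.66 for Emcn.

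Genes that work with the 10 members were not called in the mutants. Of 68 tested genes in 4 lists of vascular genes (VEGF and angiopoietin ligands and co-receptors, endothelial transcription factors, arterial, venous and Notch genes, and surface, junction and secreted proteins), 0 were called in Disp1_CS_INDEL embryos. The smallest unadjusted p belonged to Erg, an ETS factor of endothelial cells, at 10.3 ± 0.57 TPM in Disp1_CS_INDEL and 8.81 ± 0.69 TPM in Disp1_WT (SD, n = 4 each; log2 fold change 0.21, limma adjusted p = 1). Apln, the ligand of the apelin receptor, had a log2 fold change of -0.21 and Podxl, a sialomucin of the lumen, one of -0.26, with the same adjusted p. In Myo10_m1J embryos 0 of 65 tested genes were called, and all 17 endothelial transcription factors had negative log2 fold changes with a median of -0.11, beside -0.16 over all genes. There 94.75% of all genes lay at or below 0.01. The smallest unadjusted p values were those of the ligand Vegfb (log2 fold change -0.30), the co-receptor Nrp2 (-0.26) and the Notch ligand Jag1 (-0.24; limma adjusted p = 0.473 for each). For the difference between the effects they were those of the transcription factors Sox7 (0.38), Erg (0.31) and Prox1 (0.36; limma adjusted p = 0.586 for each).

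Between the ages single endothelial genes differed widely in their change. Emcn, Tie1, Cdh5, Sox18, Pecam1 and Flt4 were higher at E9.5 in both comparisons, with the largest estimate for Emcn and the smallest of those called for Flt4. Kdr, Tek and Flt1 did not pass the test, and Sox17 fell in wild-type embryos. The wild-type comparison set Disp1_WT against Myo10_WT embryos and the mutant comparison Disp1_CS_INDEL against Myo10_m1J embryos, and they share no library. In both, age, cross and library composition cannot be told apart. Markers of blood and yolk sac also differed between the ages. The summed TPM of 10 primitive erythroid genes was 28470 to 56910 at E9.5 and 91.4 to 5298 at E8.5. That of 9 visceral yolk sac endoderm genes was 40.9 to 85.7 at E9.5, apart from 963 in Disp1_WT replicate 3, and 697 to 2495 at E8.5. Pf4, a platelet gene, lay between 7.75 and 75.0 TPM at E9.5 and at up to 0.52 TPM at E8.5. The part of these cells in the changes of the members, among them Pecam1, which platelets also express, was not tested.

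In wild-type embryos limma called 6 of the 10 members higher and 1 lower at E9.5, where 79.6% of 13397 genes were called, 69.4% higher and 10.2% lower. In mutant embryos it called 6 higher and 0 lower, where 85.7% of 13359 genes were called, 77.5% higher and 8.28% lower. The median log2 fold change of the 10 genes was 1.05 in wild-type and 1.16 in mutant embryos, beside 0.62 and 0.78 over all genes. The share of members called higher was below the share of all genes in both comparisons, while the changes of single members ran from -0.80 to 2.53 in wild-type embryos.

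Emcn had 12.2, 12.9, 11.1 and 11.3 TPM in Disp1_WT embryos at E9.5, against 2.32, 1.00, 0.34 and 1.77 TPM in Myo10_WT embryos at E8.5. It had 12.6, 14.8, 10.9 and 11.6 TPM in Disp1_CS_INDEL embryos, against 0.65, 2.02, 1.54, 2.21 and 0.46 TPM in Myo10_m1J embryos. The ages did not overlap in either comparison, and the ratio of means was 8.74 in wild-type and 9.06 in mutant embryos. On log2(TPM + 1), which understates the change of a gene this low, Emcn rose by 2.53 (SE 0.24, limma adjusted p = 2.19e-06) in wild-type and by 2.56 (SE 0.22, limma adjusted p = 3.2e-07) in mutant embryos.

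Cdh5 had 69.4, 61.7, 57.8 and 61.8 TPM in Disp1_WT, against the 11.8 to 28.7 TPM of Myo10_WT, a log2 rise of 1.71 (SE 0.20, limma adjusted p = 1.34e-05). It had 67.5, 69.0, 65.1 and 60.9 TPM in Disp1_CS_INDEL, against 12.1 to 35.2 TPM in Myo10_m1J, a log2 rise of 1.76 (SE 0.23). No E8.5 embryo reached the lowest E9.5 embryo. Pecam1 rose by 1.32 (SE 0.12) in wild-type and by 1.36 (SE 0.20) in mutant embryos, with 16.1 to 17.8 TPM in Disp1_WT against 5.30 to 7.27 TPM in Myo10_WT.

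Of the 3 VEGF receptors Flt4 alone was called in both comparisons. Flt4, which binds VEGF-C and later marks lymphatic vessels, had 14.0, 12.7, 11.2 and 12.7 TPM in Disp1_WT, against 7.62, 7.67, 6.35 and 6.15 TPM in Myo10_WT, a log2 rise of 0.78 (SE 0.11, limma adjusted p = 7.37e-05). Kdr had 30.3, 29.5, 29.5 and 28.7 TPM in Disp1_WT, against 33.7, 40.7, 29.7 and 25.0 TPM in Myo10_WT, which overlap (log2 fold change -0.10, limma adjusted p = 0.461). Flt1, a receptor that binds VEGF-A tightly but signals weakly, had 6.04 to 6.70 TPM in Disp1_WT, against 4.91 to 8.63 TPM in Myo10_WT (log2 fold change 0.06, limma adjusted p = 0.722). In mutant embryos Flt4 rose by 0.97 (SE 0.11), and Kdr (0.12) and Flt1 (0.20) were not called. Without Myo10_m1J replicate 2, Flt1 was called at 0.26 (limma adjusted p = 0.0339).

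Of the Tie receptors Tie1 was called in both comparisons and Tek in neither. Tie1 had 24.8 to 29.1 TPM in Disp1_WT against 4.31 to 11.2 TPM in Myo10_WT, and 24.4 to 32.8 TPM in Disp1_CS_INDEL against 4.07 to 12.6 TPM in Myo10_m1J. It rose by 1.74 (SE 0.21, limma adjusted p = 1.3e-05) in wild-type and by 1.96 (SE 0.23, limma adjusted p = 5.39e-06) in mutant embryos. Tek had 22.3, 20.9, 18.8 and 21.2 TPM in Disp1_WT, against 35.7, 26.5, 17.2 and 17.3 TPM in Myo10_WT (log2 fold change -0.14, limma adjusted p = 0.525), and it was not called in mutant embryos (-0.14, limma adjusted p = 0.274).

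The SoxF genes moved in opposite directions in wild-type embryos. Sox18 rose by 1.55 (SE 0.12, limma adjusted p = 4.89e-07), with 38.5, 35.5, 38.9 and 31.6 TPM in Disp1_WT against 9.74 to 13.6 TPM in Myo10_WT. Sox17 fell by 0.80 on the log2 scale (SE 0.18, limma adjusted p = 0.0015), with 3.87, 3.58, 3.42 and 3.81 TPM in Disp1_WT against 5.25 to 9.68 TPM in Myo10_WT, and the ages did not overlap. In mutant embryos Sox18 rose by 1.82 (SE 0.16), and Sox17 was not called (log2 fold change -0.36, limma adjusted p = 0.13), with 3.51 to 4.54 TPM in Disp1_CS_INDEL embryos inside the 2.88 to 8.57 TPM of Myo10_m1J embryos. Without Myo10_m1J replicate 4, the lowest of that group, Sox17 fell by 0.55 in mutant embryos and was called (limma adjusted p = 0.0071). The difference between the age comparisons is the same quantity as the difference between the mutant effects, 0.44 for Sox17, which was not called. The summed TPM of 8 genes of the definitive and gut endoderm, where Sox17 is also expressed, was 206 to 254 in Disp1_WT against 359 to 696 in Myo10_WT, and 183 to 211 in Disp1_CS_INDEL against 259 to 709 in Myo10_m1J. Spink1 of this list averaged 11.1 TPM in Disp1_WT against 282.8 TPM in Myo10_WT, and 3.17 TPM in Disp1_CS_INDEL against 242.5 TPM in Myo10_m1J. Foxa1 went the other way, at 8.46 against 3.91 TPM in wild-type and 7.60 against 2.53 TPM in mutant embryos. The other genes of the list had lower means at E9.5. The sum thus does not stand for each gene of the list, and the part of endoderm cells in the level of Sox17 was not tested.

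The calls of Kdr, Tek, Flt1 and Flt4 depended on the scaling. After median-of-ratios scaling the median over all genes was 0.01 in wild-type and -0.01 in mutant embryos, and in both comparisons Emcn, Tie1, Cdh5, Sox18 and Pecam1 were higher at E9.5, Kdr, Tek, Flt1 and Sox17 were lower, and Flt4 was not called. In wild-type embryos 72.6% of genes were called on that scale, 36.4% higher and 36.2% lower, and in mutant embryos 72.9%, 35.7% higher and 37.2% lower. Kdr then fell by 0.76 (SE 0.09, limma adjusted p = 4.27e-05) and Tek by 0.79 (SE 0.15, limma adjusted p = 0.000977) in wild-type embryos, and Sox17 fell by 1.37 in wild-type and by 1.07 in mutant embryos. Emcn still rose by 2.04 in wild-type and by 1.89 in mutant embryos. These fits scaled the libraries of each comparison alone. With median-of-ratios scaling over all 17 libraries, the values of Pecam1 overlapped between the ages in mutant embryos (two-sided exact permutation p = 0.0794), and those of Flt4 overlapped in both comparisons. With protein-coding genes alone, a setting chosen after the structural RNAs had been seen, Flt4 joined the 5 higher genes in both comparisons (0.25 in wild-type and 0.34 in mutant embryos), and the other 4 were lower. On that scale 70.6% of genes were called in wild-type embryos, 41.4% higher and 29.1% lower, and 72.8% in mutant embryos, 45.6% higher and 27.2% lower.

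**Figure D3:**
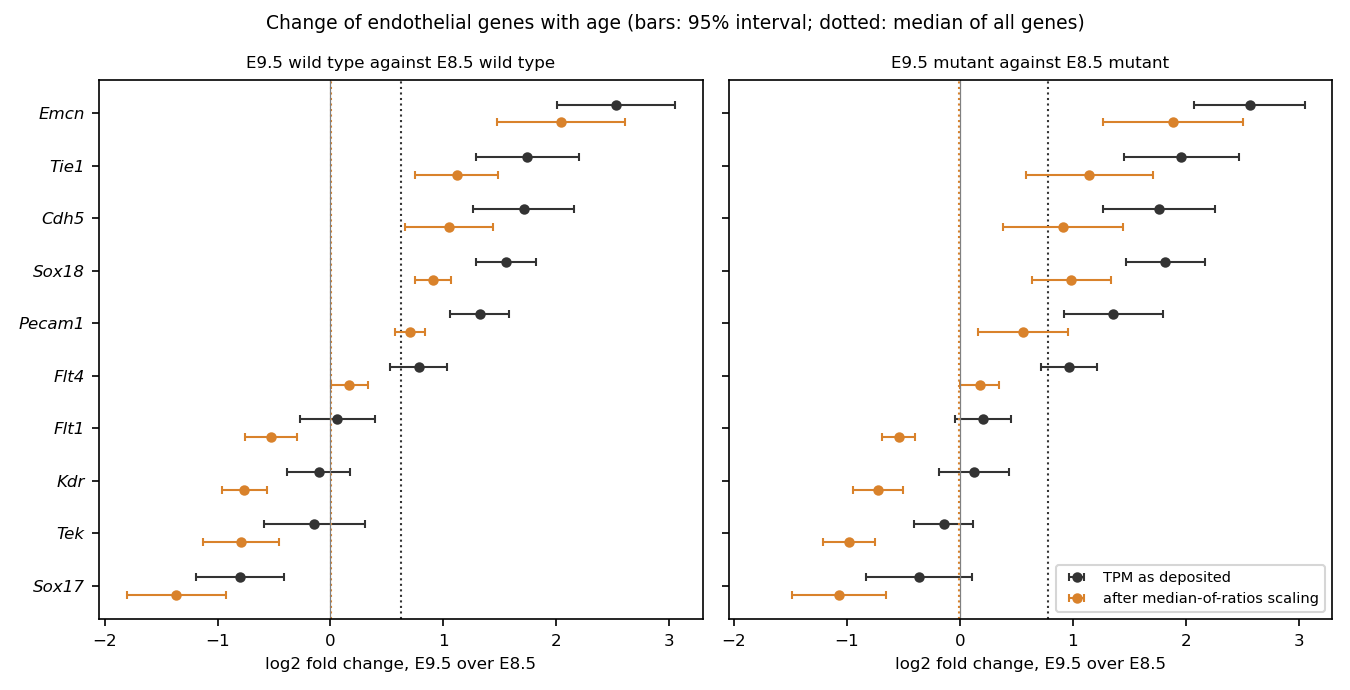
Log2 fold change, E9.5 over E8.5, of each endothelial gene (rows) in wild-type embryos (left) and mutant embryos (right), for TPM as deposited (black) and after median-of-ratios scaling (orange); points are limma estimates, bars 95% intervals and dotted lines the median of all genes on each scale. The points of Emcn, Tie1, Cdh5, Sox18, Pecam1 and Flt4 lie to the right of the median line on both scales, and those of Flt1, Kdr, Tek and Sox17 to the left. Flt4 was not called after median-of-ratios scaling.

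Ratios of members within a library do not depend on such scaling. Tie1 over Tek was 1.49 ± 0.13 in Disp1_CS_INDEL and 1.29 ± 0.09 in Disp1_WT (SD, n = 4 each), and 0.318 ± 0.093 in Myo10_m1J (SD, n = 5) and 0.320 ± 0.065 in Myo10_WT (SD, n = 4). Tie1 thus exceeded Tek in every E9.5 embryo, where the lowest ratio was 1.17, and lay under it in every E8.5 embryo, where the highest was 0.427. Sox18 over Sox17 lay between 8.15 and 11.4 at E9.5 and between 1.02 and 3.62 at E8.5.

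Among the VEGF receptors Flt4 over Kdr was 0.431 ± 0.027 in Disp1_CS_INDEL and 0.428 ± 0.035 in Disp1_WT (SD, n = 4 each), and 0.224 ± 0.013 in Myo10_m1J (SD, n = 5) and 0.219 ± 0.024 in Myo10_WT (SD, n = 4). Flt1 over Kdr, in contrast, overlapped between the ages, with 0.193 to 0.227 at E9.5 and 0.150 to 0.256 at E8.5. Cdh5 over Kdr lay between 1.96 and 2.29 at E9.5 and between 0.390 and 0.882 at E8.5. Kdr accounted for 12.4% to 13.4% of the summed TPM of the 10 genes at E9.5 and for 21.9% to 30.5% at E8.5, while Cdh5 accounted for 26.2% to 28.4% at E9.5 and for 11.9% to 21.2% at E8.5. These ratios and shares are descriptions without a test.

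The promoters of Emcn, which rose most, and of Tek, which did not pass the test as deposited, are shown because they carry the contrast between the members. RefSeq promoter sequences (GRCm38.p6) were found for 6 of the 10 genes, Kdr, Tek, Tie1, Flt1, Flt4 and Emcn, as windows of 250 bases before the annotated start. Motifs were searched in the whole windows, and bases inside a GENCODE transcript were left out of the printed sequences only. The windows of Tie1 and Flt4 reach further into such a transcript than those of the others. The printed sequences are on the plus strand, Emcn at chr3:137340828-137341066 and Tek at chr4:94739039-94739288. Capitals mark matches on either strand to ETS (CAGGAAG and CCGGAAG), FOX-ETS (AACAGGAA) and SOX (ACAAT) motifs. The letters AGATAA, bound by blood and endothelial zinc-finger factors, and the core promoter element TATAAA were searched as well, on both strands. Positions count back from the RefSeq start.
Emcn: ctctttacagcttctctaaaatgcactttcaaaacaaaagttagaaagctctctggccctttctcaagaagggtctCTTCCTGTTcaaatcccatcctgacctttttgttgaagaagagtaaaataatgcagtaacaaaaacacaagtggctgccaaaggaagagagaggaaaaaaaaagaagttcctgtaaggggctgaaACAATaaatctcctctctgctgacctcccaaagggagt
Tek: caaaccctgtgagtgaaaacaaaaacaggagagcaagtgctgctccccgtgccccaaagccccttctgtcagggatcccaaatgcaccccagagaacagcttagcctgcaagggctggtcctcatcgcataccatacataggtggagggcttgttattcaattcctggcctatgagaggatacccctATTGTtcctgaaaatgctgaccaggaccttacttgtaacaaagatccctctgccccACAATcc
The window of Emcn held an ETS match from -174 to -168 and a FOX-ETS match from -173 to -166 that overlaps it, both on the minus strand, and a SOX match from -49 to -45. Tek held 2 SOX matches, from -63 to -59 on the minus strand and from -7 to -3 on the plus strand. Of 27025 RefSeq promoters, 10.5% held CAGGAAG, 7.05% CCGGAAG, 2.16% AACAGGAA, 28.3% ACAAT and 10.3% AGATAA. Kdr, Tie1, Flt1 and Flt4 held none of these in their windows, and Flt1 held a TATAAA, found in 13.0% of promoters, from -31 to -26. The matches describe the letters of the windows and say nothing of binding.

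The wider vascular lists are read against the 69.4% of all genes called higher in wild-type and 77.5% in mutant embryos, with medians of 0.62 and 0.78. Of 27 tested surface, junction and secreted genes, 22 were called higher and 1 lower at E9.5 in wild-type embryos (median log2 fold change 1.16), and 21 higher and 2 lower in mutant embryos (median 1.16). Cldn5, the claudin of endothelial tight junctions, was at 62.9 ± 2.48 TPM in Disp1_WT and 9.68 ± 1.92 TPM in Myo10_WT (SD, n = 4 each; log2 rise 2.60, limma adjusted p = 2.69e-08). Eng, a co-receptor for BMP ligands, rose by 2.34 and Cd34, a sialomucin of endothelial and blood progenitors, by 2.53. Podxl fell by 0.81 in wild-type and by 0.77 in mutant embryos, and Lyve1, a hyaluronan receptor of lymphatic vessels, fell by 1.10 in mutant embryos (limma adjusted p = 0.0437). In wild-type embryos Lyve1 was not called (log2 fold change -0.66, 95% interval -1.74 to 0.43, limma adjusted p = 0.235), and it spread from 0.79 to 12.1 TPM among Myo10_m1J embryos.

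Of 12 arterial, venous and Notch genes, 10 were higher and 1 lower in each comparison, with medians of 1.07 in wild-type and 1.10 in mutant embryos. Gja5, a gap junction gene of arteries that is also expressed in the heart, rose by 2.71 in wild-type and by 2.25 in mutant embryos. Jag1, a Notch ligand, fell by 0.65 in wild-type and by 0.39 in mutant embryos. Of 17 endothelial transcription factors 13 were higher and 1 lower in wild-type embryos, and 14 higher and 1 lower in mutant embryos, with medians of 0.77 and 0.86, close to those of all genes. Hoxb5, a Hox gene with many sites of expression, rose by 2.66 in wild-type and by 2.88 in mutant embryos, and Nr2f2, a factor of venous identity that is also widespread in mesenchyme, by 2.29 and by 2.63. The transcription factor that fell was Etv2, the early factor that turns mesoderm into endothelial and blood cells, at 5.70 ± 0.85 TPM in Disp1_WT and 21.7 ± 8.91 TPM in Myo10_WT (SD, n = 4 each; log2 change -1.68, limma adjusted p = 9.57e-05).

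Ligands and co-receptors had the lowest median of these lists. Of 12 genes 4 were higher and 2 lower in wild-type embryos (median 0.36), and 5 higher and 1 lower in mutant embryos (median 0.28), below the medians over all genes. Vegfa, the main ligand of Kdr and Flt1, was at 28.1 ± 4.66 TPM in Disp1_WT and 26.8 ± 5.54 TPM in Myo10_WT (SD, n = 4 each; log2 fold change 0.07, limma adjusted p = 0.67), and after median-of-ratios scaling it fell by 0.58. Vegfb, named like Vegfa after its values had been seen, rose by 1.84. The co-receptor Nrp1 and the ligand Apln fell by 0.41 and 0.48 in wild-type embryos, and Apln fell by 0.56 in mutant embryos. After median-of-ratios scaling, which called 36.4% of all genes higher and 36.2% lower in wild-type embryos and 35.7% and 37.2% in mutant embryos, the counts of every list moved. Of the surface, junction and secreted genes 17 were then higher and 4 lower in wild-type embryos, and 15 and 6 in mutant embryos. Of the arterial, venous and Notch genes 7 were higher and 2 lower in wild-type embryos, and 9 and 2 in mutant embryos. Of the transcription factors 6 were higher and 4 lower in wild-type embryos, and 7 and 3 in mutant embryos. Of the ligands and co-receptors 2 were higher and 5 lower in each comparison, and their medians turned to -0.22 in wild-type and -0.34 in mutant embryos.

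Few pairs of members passed a test of covariation among embryos of 1 age. After the group means had been removed, 42 of the 45 pairs of members correlated positively at E9.5 (8 embryos, median r = 0.55) and 40 of 45 at E8.5 (9 embryos, median r = 0.62). With p-values from exact permutation within groups, adjusted over 90 pairs, 0 pairs passed at E9.5 and 2 at E8.5, against 7 and 22 pairs with an unadjusted p under 0.05. Groups of 4 and 4 embryos allow fewer permutations than groups of 5 and 4, so the smallest possible p was larger at E9.5. The ages cannot be compared by these counts. Over all pairs of genes with a mean of at least 1 TPM, 63.6% correlated positively at E9.5 (median r = 0.19) and 86.9% at E8.5 (median r = 0.56), so the members' count at E8.5 was near that of all genes. After median-of-ratios scaling, a comparison chosen after the data had been seen, 34 pairs of members were positive at E9.5 and 36 at E8.5, beside 50% and 50.1% of all pairs. The pairs that correlated negatively as deposited all held Sox17. The values of a library sum to the same total in all 17, a constraint that the correlated values share.

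At E8.5 Cdh5 and Tie1 had a Pearson r of 0.98 (n = 9, exact permutation p = 0.00104, adjusted p = 0.0469) and a Spearman rho of 0.88 (exact permutation p = 0.0066). The r was 0.96 without the 2 embryos farthest from the median of Cdh5 and 0.97 after median-of-ratios scaling. Kdr and Flt4 had an r of 0.96 (n = 9, exact permutation p = 0.000347, the smallest possible, adjusted p = 0.0312) and a rho of 0.93 (exact permutation p = 0.000694). That r was 0.93 without the 2 farthest embryos and 0.86 after median-of-ratios scaling. Kdr and Emcn, in contrast, had an r of 0.05 (rho -0.03, n = 9, exact permutation p = 0.897).

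Emcn and Sox17 lay opposite each other in the E8.5 embryos. Myo10_m1J replicates 1 and 5 and Myo10_WT replicates 2 and 3 had between 0.34 and 1.00 TPM of Emcn and between 7.02 and 9.68 TPM of Sox17. The other 5 embryos had between 1.54 and 2.32 TPM of Emcn and between 2.88 and 5.62 TPM of Sox17. The split is drawn on Emcn itself. Over the 9 embryos the pair had an r of -0.85 and a rho of -0.82 (exact permutation p = 0.0115 and 0.0174), which did not pass after adjustment over 90 pairs (adjusted p = 0.0868). The r was -0.82 without the 2 embryos farthest from the median of Emcn.

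**Figure D4:**
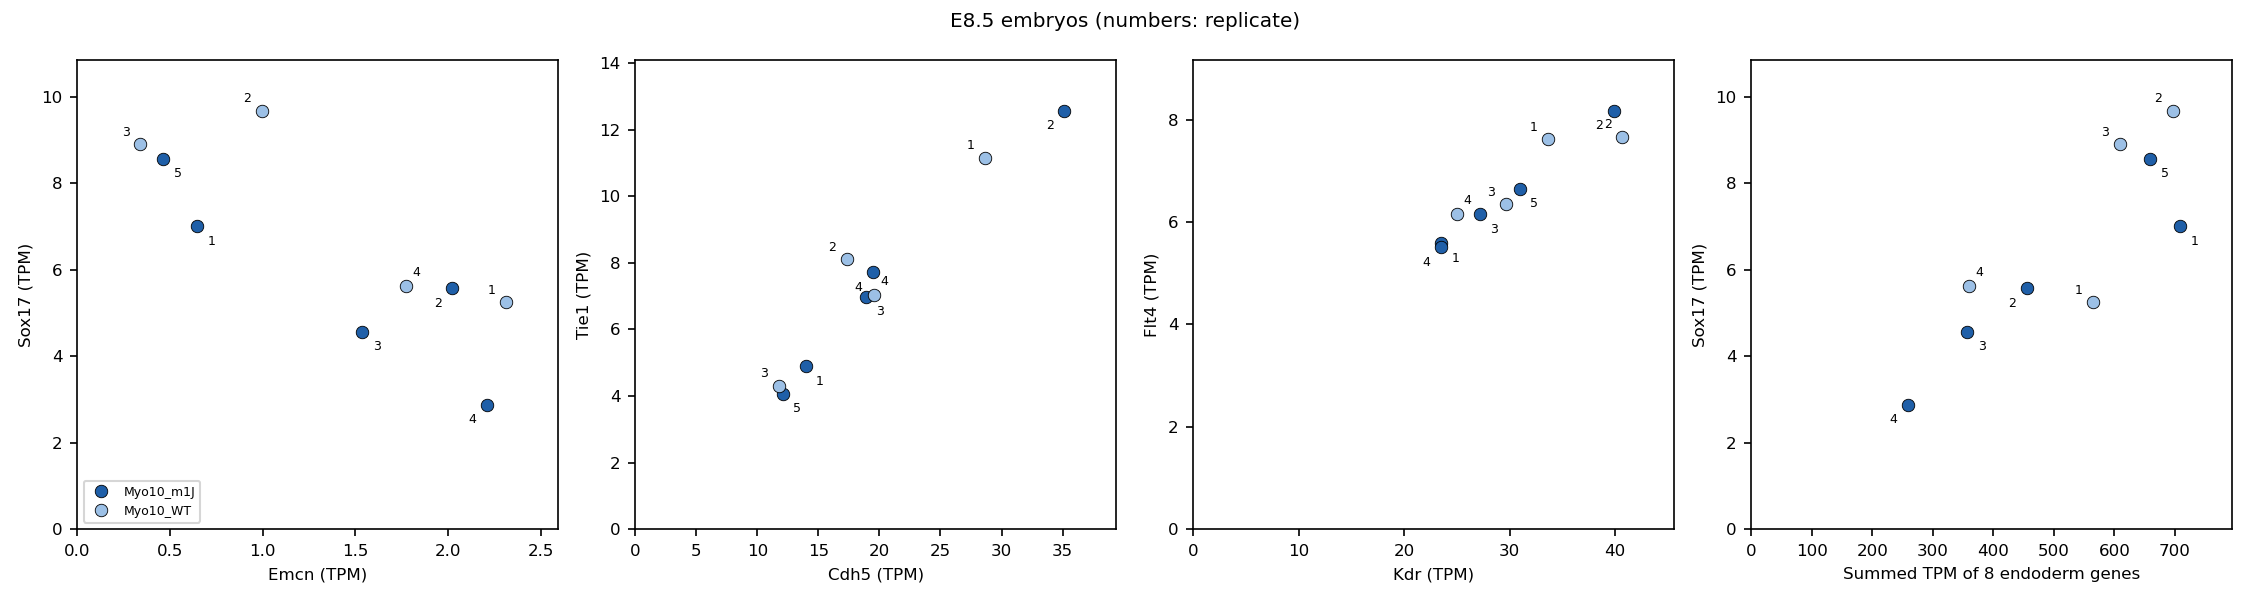
TPM of pairs of endothelial genes, and of Sox17 against the summed TPM of 8 endoderm genes, in the 9 E8.5 embryos (dark, Myo10_m1J; light, Myo10_WT; numbers give the replicate; all axes start at 0). Tie1 climbs with Cdh5 and Flt4 with Kdr, while Sox17 is at 7.02 to 9.68 TPM in the 4 embryos with up to 1.00 TPM of Emcn and at 2.88 to 5.62 TPM in the other 5.

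**Figure D5:**
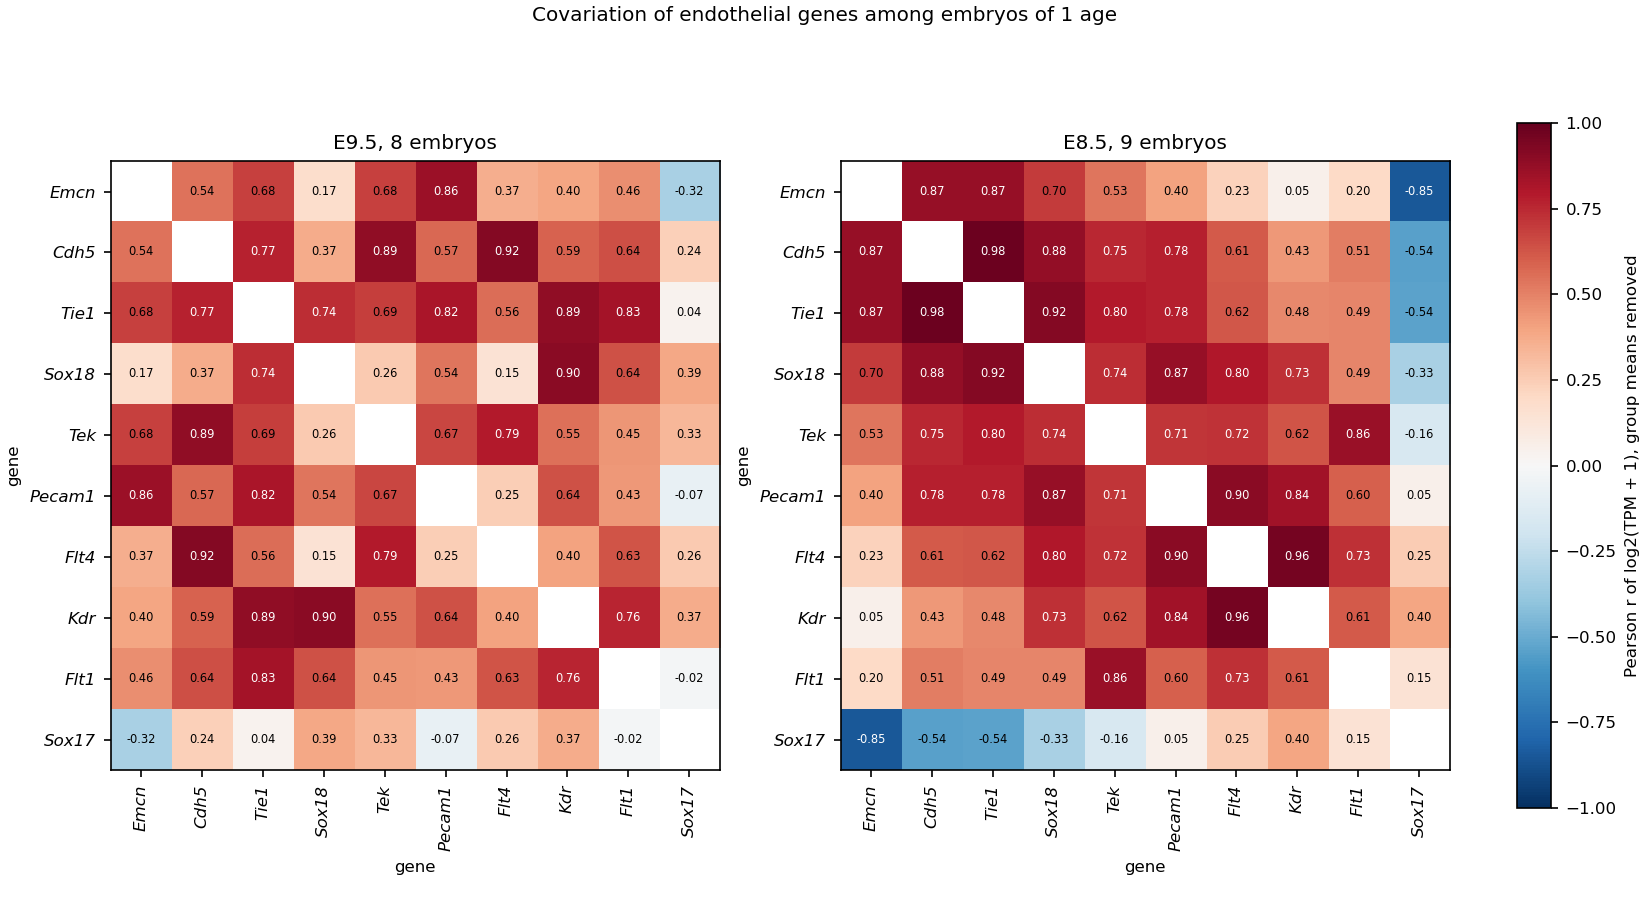
Pearson r between endothelial genes (rows and columns) on log2(TPM + 1) after removal of the group means, over 8 embryos at E9.5 (left) and 9 embryos at E8.5 (right); red is positive and blue negative. At E8.5 Cdh5 with Tie1 (0.98) and Kdr with Flt4 (0.96) are the pairs that passed the adjusted test, and the row of Sox17 holds the negative values.

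Markers of other cells moved with several members at E8.5. Of 180 relations between members and summed marker lists, 3 passed after adjustment (Emcn with the endocardium and myocardium genes, and Tie1 and Sox18 with the pericyte and smooth muscle genes) and 46 had an unadjusted p under 0.05. They were tested on TPM as deposited alone, where 86.9% of all pairs of genes correlated positively at E8.5 (median r = 0.56). The share of all genes that pass with these lists was not counted. The smallest possible permutation p was again larger at E9.5 than at E8.5. Tie1 correlated with 7 pericyte and smooth muscle genes, the list for mural cells that coat vessels, with an r of 0.90 and a rho of 0.98 (n = 9, exact permutation p = 0.000347 and 0.000694, adjusted p = 0.0417), and r was 0.96 without the 2 farthest embryos. Sox18 correlated with the same genes with an r of 0.77 and a rho of 0.92 (n = 9, exact permutation p = 0.000694 and 0.00208, adjusted p = 0.0417), and r was 0.91 without the 2 farthest embryos. The mural sum is mostly that of Acta2, which averaged 160 TPM in Myo10_m1J and 152 TPM in Myo10_WT embryos. Cspg4 and Myh11 of the same list averaged at most 0.29 TPM in these groups, so the sum does not single out mural cells. Tie1 also had an r of 0.84 and a rho of 0.87 with the endocardium and myocardium genes (exact permutation, adjusted p = 0.0817). Emcn correlated with 8 endocardium and myocardium genes with an r of 0.93 and a rho of 0.95 (n = 9, exact permutation p = 0.000694 and 0.00278, adjusted p = 0.0417), and r was 0.94 without the 2 farthest embryos. Their sum ran from 314 to 625 TPM in Myo10_m1J and from 218 to 884 TPM in Myo10_WT embryos. It is mostly that of Myl7, which averaged 410 TPM in Myo10_m1J and 409 TPM in Myo10_WT embryos. Nfatc1 and Npr3 of the same list averaged at most 7.59 TPM in these groups, so the sum does not single out endocardium. Sox17 had an r of 0.89 and a rho of 0.85 with the 8 endoderm genes (n = 9, exact permutation p = 0.00347 for r), which did not pass after adjustment (adjusted p = 0.0817), and r was 0.78 without the 2 farthest embryos. Spink1 had the highest mean of these 8 genes, at 242.5 TPM in Myo10_m1J and 282.8 TPM in Myo10_WT embryos.

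Blood and Y-linked transcripts varied among the same embryos. The summed TPM of 10 primitive erythroid genes was 507, 5298, 497, 3526 and 91.4 in Myo10_m1J, against 1963, 545, 354 and 317 in Myo10_WT. Of the E8.5 embryos, 4 carried Y-linked transcripts, with Emcn between 1.54 and 2.32 TPM and Sox17 between 2.88 and 5.57 TPM, against Emcn between 0.34 and 1.77 TPM and Sox17 between 5.62 and 9.68 TPM in the 5 without. The defining white blood cell gene Ptprc was under 0.1 TPM in every E8.5 embryo. The part of these cells and of sex in the spread of the members was not tested.

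The genes most like the members were found by correlating each of 13205 genes with a mean TPM of at least 1 with the mean of the 10 members, after removal of the group means, over all 17 libraries. Eng came first (r = 0.97), followed by Ulk2, Nid1, Klhl22, Susd1, Ubash3b, Anxa6, Emilin1, Capn6 and Adam12 (r from 0.957 to 0.947). Eng is the one of these 10 that also stands in the vascular lists. After median-of-ratios scaling 4 of the 10 remained, and without Disp1_WT replicate 3 there were 7. Tie1 (r = 0.92) and Pecam1 (r = 0.91) lay closest to the mean that they are part of, and Sox17 farthest (r = -0.16). Set among the non-members, Tie1 ranked 42, Kdr 990, Flt1 1628 and Emcn 3184. Of the 68 vascular list genes ranked, 10 stood among the top 100 non-members. A high r was thus not particular to endothelial genes.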

How the data were processed

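RNA sequencing of 17 single whole embryos was analysed. Per the labels' protocols, RNA came from a column kit for small samples, libraries from the TruSeq RNA v2 kit, which does not mark strand, and reads from a NovaSeq instrument. The authors deposited 1 table of TPM per gene symbol for all libraries, and each column sums to 1000000. The build is GRCm39, per the submitters' processing notes, while aligner and quantifier were not given in the sources used. Depth cannot be read from TPM, so the counting error of each value is unknown.

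Groups and replicate numbers came from the sample titles. Each embryo is a separate animal, and litters are not named. Each comparison kept the genes that reached 1 TPM in 4 or more of its libraries and tested them on log2(TPM + 1) with limma 3.58.1 in R 4.3.3 (trended empirical Bayes). P-values were adjusted by Benjamini and Hochberg over all genes tested, with a threshold of 0.05. Single members were also compared with two-sided exact permutation tests of TPM. The 5 comparisons were each mutant against its wild type, the difference of these effects, and E9.5 against E8.5 in wild-type and in mutant embryos. The fits were tested on simulated data.

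Alternatives were a pseudocount of 0.1, other filters on low values, median-of-ratios scaling, removal of structural RNA, haemoglobin and mitochondrial genes, a term for Y-linked transcripts, no trend in the variance prior, 1 fit of all 17 libraries, a replicate block and omission of single libraries. The restriction to protein-coding genes was added after the data had been seen. The members and gene lists were chosen with earlier results of these data known. All members were named. Of the other vascular genes, up to 6 called in each direction with the largest change were named, or the 3 with the smallest p where none was called. The 10 non-member genes most like the members were those with the highest Pearson r between their group-centred log2(TPM + 1) and the members' mean over the 17 libraries, among genes with a mean of at least 1 TPM. Gm37587 overlaps Sox17 and Gm29682 overlaps Cdh5 on the other strand, and both had at most 0.116 TPM in any library. Same-numbered embryos of the compared groups did not deviate together in every pair, so the numbers were not used to pair them.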

Additional observations from a re-analysis of the deposited data

Results flagged for a closer look

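In 3 of the 40 combinations of member and group, the highest or lowest embryo lay far from the others, by Dixon's 95% critical value. About 1 in 20 such groups passes that value by chance. Pecam1 stood at 12.0 TPM in Myo10_m1J replicate 2, and the other 4 Myo10_m1J embryos lay between 5.17 and 5.70 TPM. Tek stood at 29.4 TPM in the same embryo, and the other 4 lay between 18.9 and 21.6 TPM. This embryo also had the highest summed erythroid markers (5298 TPM), haemogenic markers (22.5 TPM) and trophoblast and decidua markers (280 TPM) of its group, and their part in the 2 values was not tested. Flt1 stood at 5.76 TPM in Disp1_CS_INDEL replicate 4, and the other 3 Disp1_CS_INDEL embryos lay between 6.63 and 6.65 TPM. This embryo is the only one of its group without Y-linked transcripts, and the part of sex in the value was not tested.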

How the results depend on the processing

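No alternative called a member in Disp1_CS_INDEL against Disp1_WT, in Myo10_m1J against Myo10_WT or in the difference between these effects. The 6 members called higher at E9.5 as deposited were 5 after median-of-ratios scaling, which left Flt4 at 0.17 in wild-type and 0.18 in mutant embryos. The count called lower was 1 in wild-type and 0 in mutant embryos as deposited. It was 4 and 4 after median-of-ratios scaling, 3 and 3 without structural RNA, haemoglobin and mitochondrial genes, and 4 and 4 with protein-coding genes alone. The removal of structural RNA was partial, and the median over all genes stayed at 0.28 in wild-type and 0.39 in mutant embryos. With 1 library left out the count called lower ran from 0 to 1 in mutant embryos, with 1 without Myo10_m1J replicate 4.

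Signs turned for members near 0. In the wild-type age comparison Flt1 was -0.52 after median-of-ratios scaling, -0.27 without structural RNA, haemoglobin and mitochondrial genes, -0.47 with protein-coding genes and -0.10 with the Y-linked term. In the mutant age comparison, under the first 3 of these, Kdr was -0.73, -0.31 and -0.57 and Flt1 was -0.54, -0.19 and -0.42. In Myo10_m1J against Myo10_WT the Y-linked term gave -0.0807 for Pecam1, -0.27 for Cdh5 and -0.27 for Emcn. Median-of-ratios scaling gave 0.0375 for Kdr, 0.120 for Tek, 0.0834 for Tie1, 0.0248 for Flt1 and 0.0655 for Flt4, and protein-coding genes gave 0.0406 for Tek and 0.00726 for Tie1. For the difference between the mutant effects, median-of-ratios scaling gave -0.14 for Pecam1, -0.13 for Cdh5, -0.0232 for Flt1 and -0.11 for Emcn. Removal of structural RNA, haemoglobin and mitochondrial genes gave -0.0245 for Pecam1, -0.0110 for Cdh5 and -0.0224 for Emcn, and protein-coding genes gave -0.0686, -0.0572 and -0.0639 for the same genes. Tek was 0.0929 with the Y-linked term, and Emcn -0.00431 with a pseudocount of 0.1. The values of Myo10_m1J against Myo10_WT and of the difference between the effects were not called, and the cause of the turns was not tested.

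With 1 library left out, signs turned for Emcn (-0.0181 to 0.12), Flt1 (-0.0258 to 0.0431) and Sox18 (-0.0245 to 0.14) in Disp1_CS_INDEL against Disp1_WT. In Myo10_m1J against Myo10_WT they turned for Cdh5 (-0.21 to 0.21), Emcn (-0.22 to 0.21), Flt1 (-0.23 to 0.00116), Pecam1 (-0.17 to 0.10), Tek (-0.21 to 0.13) and Tie1 (-0.31 to 0.0891). For the difference between the effects they turned for Cdh5 (-0.15 to 0.28), Emcn (-0.15 to 0.28), Flt1 (-0.00228 to 0.23), Pecam1 (-0.0300 to 0.24) and Tek (-0.20 to 0.13). In the wild-type age comparison they turned for Flt1 (-0.0276 to 0.21), Kdr (-0.22 to 0.0115) and Tek (-0.28 to 0.0596).

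Same-numbered embryos correlated between -0.241 and 0.348 in the Disp1 groups and between -0.287 and 0.463 in the Myo10 groups. No values for embryos of different numbers were set beside these, so a shared litter or batch cannot be judged from them. With the replicate block, 46 genes were called in Myo10_m1J against Myo10_WT, against 1 without it, and 2 in Disp1_CS_INDEL against Disp1_WT, against 4. The block moved no count of members called, with 0 members in either mutant comparison. It gave 0.0585 for Tie1 in Myo10_m1J against Myo10_WT, and -0.0137 for Pecam1, -0.0893 for Cdh5 and -0.12 for Emcn in the difference between the effects. The filter at a mean of 5 TPM removed Sox17 from the Disp1 and mutant age comparisons and Emcn from the Myo10 comparison, which gave no value there. TPM keeps no depth, so counting error could not be separated from differences between embryos.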

Other observations

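At E9.5, 2 of the 8 embryos had no Y-linked transcripts, 1 Disp1_CS_INDEL and 1 Disp1_WT embryo. Flt1, the decoy-like VEGF receptor, lay at 5.76 to 6.04 TPM in these 2 embryos, against 6.29 to 6.70 TPM in the 6 embryos with Y-linked transcripts. Sox18 lay at 31.6 to 32.6 TPM in the 2 embryos, against 35.5 to 46.6 TPM in the 6. Kdr lay at 28.1 to 28.7 TPM, against 29.5 to 34.4 TPM, and Tie1 at 24.4 to 24.8 TPM, against 26.3 to 32.8 TPM. The ranges did not overlap for any of these 4 genes, which were chosen after their values were seen, and no test of them was made. The ranges of the other members overlapped. How many of all genes separate these embryos in the same way was not counted, so no sex difference is read from these values.

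Angpt2, a context-dependent ligand of Tek, ranged from 1.34 to 20.3 TPM among the 5 Myo10_m1J embryos. Its median there was 1.74 TPM beside a mean of 5.37 TPM, so the top of the range is a single high embryo. Among Myo10_WT embryos it ranged from 0.79 to 3.32 TPM.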
